A study of Mus musculus with 10 samples.

Results

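The 34 genes described here encode the machinery of DNA replication and of mitosis, and were measured in tuft cells of the thymus and small intestine (SI) and in SI epithelium. They were taken by symbol from a list by a rule that uses no measured value, and matched to Ensembl identifiers through a GRCm38 annotation. The list itself was chosen with earlier results of these data known. All 34 were found among the 43432 identifiers of the count files, and all 34 were among the 19281 genes that passed the filter on low counts. By function, 16 act in DNA replication or the step into S phase and 18 act in mitosis or mark dividing cells.

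RNA-seq libraries had been made from sorted tuft cells, rare chemosensory epithelial cells, of thymus and SI, and from other SI epithelial cells. All mice carried the genotype C57BL6.Il25(Flare25/Flare25), in which Flare25 is a fluorescent reporter allele of the cytokine gene Il25. All were naïve males of 12 weeks, and each library came from 1 mouse. Thymic tuft libraries 1 to 4 (n = 4) held 1350 to 1900 sorted cells that were DAPI-, CD45-, EPCAM+ and Flare25+. SI tuft libraries 2, 3 and 4 (n = 3) held 35000 to 36000 cells of the same gate. SI epithelium libraries 1, 2 and 3 (n = 3) held 52000 to 57000 cells that were DAPI-, CD45-, EPCAM+ and Flare25-. The gate of SI epithelium does not separate dividing crypt cells from absorptive and secretory cells, and no gate selected a phase of the cell cycle. SI cells were released with DTT and EDTA and thymic cells with enzymes, so organ, dissociation and cell number cannot be told apart in any comparison with thymic libraries.

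Before DNA is copied, Cdc6 and Cdt1 load the MCM helicase ring on origins in G1 phase. Cdc45 and the GINS complex then turn the ring into the moving helicase, and PCNA clamps polymerases to the template while thymidylate synthase and ribonucleotide reductase supply building blocks. Mitosis is driven by Cdk1 with cyclins A and B, by Polo and Aurora kinases, by spindle motors and by the anaphase-promoting complex. Replication genes are mostly transcribed under E2F factors in G1 and S phase, and mitosis genes later, under the MuvB complex with B-Myb and FoxM1. The intestinal crypt is among the fastest dividing tissues of the adult mouse, and mature tuft cells are regarded as non-dividing cells.

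Letters of the sites these factors bind were searched in the promoters. RefSeq sequences of build GRCm38.p6, from 250 bases before to 50 bases after the start site, were matched for 28 of the 34 genes (13 replication and 15 mitosis), with 2 start sites for Mcm7. Gins1, Gins2, Mcm4, Aurkb, Tpx2 and Ccna2 were not matched. The cell cycle homology region (CHR, with the letters TTTGAA or else TTCGAA) is bound by MuvB complexes, and the CCAAT box is bound by NF-Y. As letters of E2F sites TTGGCGC was searched, and likewise TTCGCGC and also TTCCCGC. Every motif was searched on both strands. E2F letters can overlap each other on opposite strands, and TTGGCGC can overlap a CCAAT box read on the other strand. CHR letters stood in 11 of 15 mitosis promoters (73.3%) and in 3 of 13 replication promoters (23.1%), beside 19.2% of all 32851 promoters of the table. E2F letters stood in 3 of 15 mitosis promoters (20.0%) and in 6 of 13 replication promoters (46.2%), beside 8.07% of all promoters. The CCAAT box was found in 13 of 15 mitosis promoters (86.7%) and in 9 of 13 replication promoters (69.2%), beside 37.4% of all. Members were counted per gene and all promoters per start site. A match is a run of letters and not a measured site, and the promoters of Tyms, Ccne1, Birc5 and Nusap1 held none of these letters.

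The promoters of 2 replication and 3 mitosis genes are written here to show the arrangements found, 5′ to 3′ on the gene's strand with the motif letters in capitals. A motif on the other strand appears as its reverse complement, as in Kif11. They are Mcm5 at chr8:75109259-75109558 (plus strand), Mcm10 at chr2:5012742-5013041 (minus strand), Plk1 at chr7:122159185-122159484 (plus strand), Cdc20 at chr4:118437294-118437593 (minus strand) and Kif11 at chr19:37376132-37376431 (plus strand). Mcm5 holds 3 overlapping or neighbouring E2F matches upstream of 3 CCAAT boxes. Mcm10 holds CCAAT boxes without E2F letters inside the window. Its window ends in ttggcg, so a TTGGCGC that crosses the edge would be missed. Plk1, Cdc20 and Kif11 each hold CHR letters within 30 bases of the start site and a CCAAT box close to them.
Mcm5: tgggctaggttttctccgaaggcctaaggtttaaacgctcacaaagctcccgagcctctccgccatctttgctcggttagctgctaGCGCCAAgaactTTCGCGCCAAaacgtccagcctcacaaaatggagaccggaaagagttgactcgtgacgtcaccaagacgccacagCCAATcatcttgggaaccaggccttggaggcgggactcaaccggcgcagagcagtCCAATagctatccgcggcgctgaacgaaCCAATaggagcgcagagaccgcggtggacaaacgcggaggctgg
Mcm10: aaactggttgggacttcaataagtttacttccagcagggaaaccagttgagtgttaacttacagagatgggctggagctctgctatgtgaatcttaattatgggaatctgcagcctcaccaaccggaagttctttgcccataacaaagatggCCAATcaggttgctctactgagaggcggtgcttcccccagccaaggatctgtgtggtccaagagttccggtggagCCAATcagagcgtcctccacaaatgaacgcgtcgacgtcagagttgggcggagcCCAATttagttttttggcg
Plk1: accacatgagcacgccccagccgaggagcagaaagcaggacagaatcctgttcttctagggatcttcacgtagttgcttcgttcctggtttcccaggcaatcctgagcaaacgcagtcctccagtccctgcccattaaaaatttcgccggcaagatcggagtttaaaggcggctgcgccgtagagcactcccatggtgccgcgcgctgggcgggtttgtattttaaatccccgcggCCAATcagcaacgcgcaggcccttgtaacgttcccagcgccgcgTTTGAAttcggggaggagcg
Cdc20: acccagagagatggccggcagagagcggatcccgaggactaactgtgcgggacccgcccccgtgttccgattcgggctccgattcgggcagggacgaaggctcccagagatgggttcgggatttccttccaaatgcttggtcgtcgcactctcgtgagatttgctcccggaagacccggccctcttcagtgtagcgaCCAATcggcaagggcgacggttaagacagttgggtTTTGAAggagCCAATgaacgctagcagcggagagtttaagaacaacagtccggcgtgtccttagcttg
Kif11: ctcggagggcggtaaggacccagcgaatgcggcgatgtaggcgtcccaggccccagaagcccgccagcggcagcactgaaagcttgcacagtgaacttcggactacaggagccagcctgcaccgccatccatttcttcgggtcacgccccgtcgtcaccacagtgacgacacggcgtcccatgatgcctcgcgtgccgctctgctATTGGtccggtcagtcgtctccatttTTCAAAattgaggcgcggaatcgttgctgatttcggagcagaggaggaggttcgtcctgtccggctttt

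**Figure D1:**
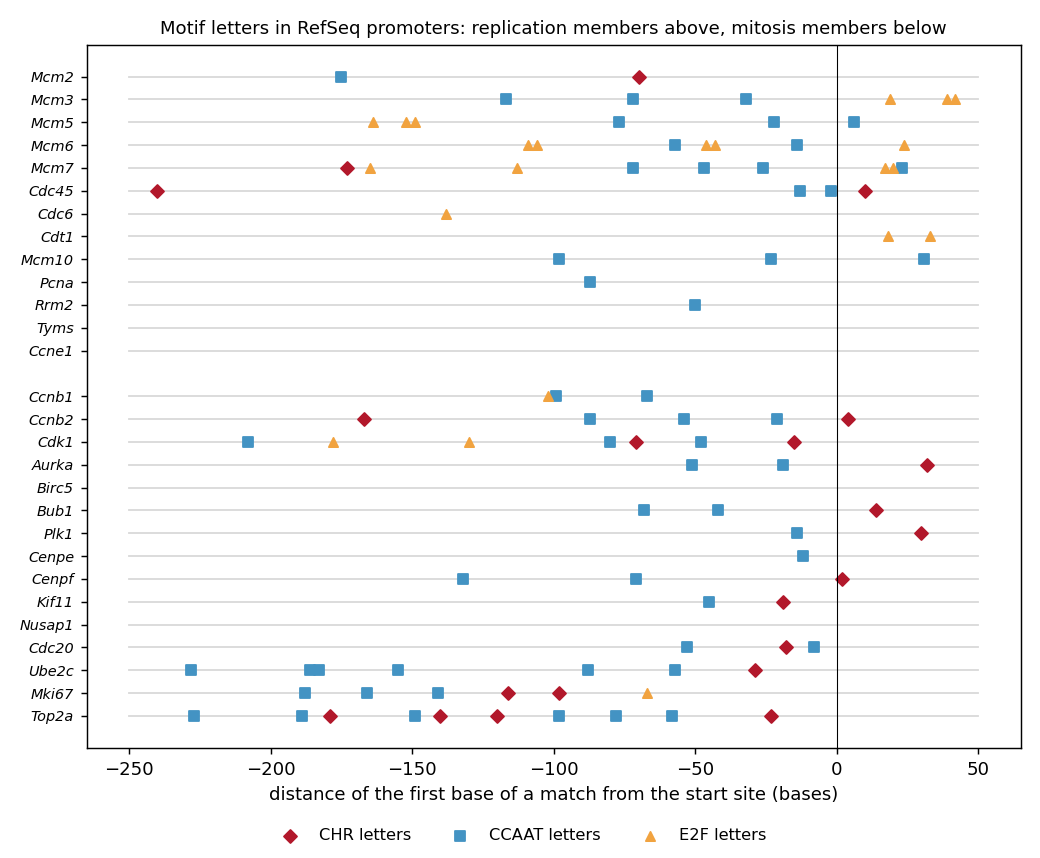
Distance in bases of the first base of each motif match from the start site for the 28 members with a promoter entry (replication above, mitosis below; diamonds CHR, squares CCAAT, triangles E2F letters). CHR letters mark 11 of 15 mitosis rows and 3 of 13 replication rows.

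Levels are given as CPM, counts per 1e6 counts of a library after scaling by the trimmed mean of M values (TMM), and comparisons are edgeR's quasi-likelihood tests over all 19281 genes, with Benjamini-Hochberg adjustment and a call at an adjusted p below 0.05. A fold change is on the log2 scale, followed by its standard error. Libraries held 38659882 to 73574745 counts, and 3 counts correspond to 0.0408 to 0.0776 CPM before TMM scaling, which covers counting error only. Mitochondrial genes took 4.38% to 5.97% of the counts of thymic libraries, 24.1% to 33.5% of SI tuft and 18.6% to 23.7% of SI epithelium libraries. TMM factors were 1.33 to 1.43, 0.661 to 0.785 and 0.884 to 0.900 in the same order of groups. With library size as the only scaling, the median gene moved by 0.90 in thymic against SI tuft cells, by 0.62 in thymic tuft cells against SI epithelium and by -0.28 in SI tuft cells against SI epithelium. The calls over all genes then changed to 8822 higher and 2003 lower, against 5492 and 4453 with TMM, for thymic against SI tuft cells. They changed to 7565 higher and 2460 lower, against 5514 and 4297, for thymic tuft cells against SI epithelium, and to 1537 and 3238, against 2101 and 2199, for SI tuft cells against SI epithelium.

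Gene positions are those of GRCm38. Exons of 9 of the 34 genes overlap another gene: Ccna2, Cdc20, Cdc45, Gins2, Mcm7, Nusap1, Plk1, Top2a and Ube2c, and without strand their counts may hold reads of the neighbour. The overlap takes 67.3% of the exon length of Gins2 and 22.8% of that of Ube2c, whose neighbour Tnnc2 had 0 counts in all libraries.

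Some libraries share counts. SI epithelium libraries 1, 2 and 3 held 0.442%, 0.468% and 0.525% of the counts of thymic libraries 3, 2 and 1. The same thymic libraries held 0.918%, 0.959% and 0.860% of the counts of those epithelial libraries, and thymic library 4 had no such partner. After this share was subtracted, the thymic mitosis and replication sums and their ratios are therefore given again. So are the median fold changes of the members and the counts of calls of members and pathway genes. Fold changes of single genes are given again where subtraction moved them by more than 1.5 times. Marker sums, other sums, percent levels, spreads and counts without overlap are those before subtraction, unless stated. Subtraction removed 1.07% to 1.48% of the counts of thymic libraries 1 to 3. All 12 tuft cell markers were called higher in both tuft groups than in SI epithelium, beside 28.6% of all genes for thymic and 10.9% for SI tuft cells. Their summed levels were 7162 to 8311 CPM in thymic tuft, 27180.0 to 36790.0 CPM in SI tuft and 241 to 478 CPM in SI epithelium libraries.

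Summed over the 18 mitosis genes, expression was 99.4 ± 30.9 CPM in thymic tuft cells, 741 ± 142 CPM in SI tuft cells and 2887 ± 426 CPM in SI epithelium (SD, n = 4, 3 and 3). Over the 16 replication genes it was 90.6 ± 3.36 CPM in thymic tuft cells, 238 ± 20.8 CPM in SI tuft cells and 580.4 ± 43.6 CPM in SI epithelium. Both sums had the order thymic tuft below SI tuft below SI epithelium, and no library of one group reached the range of another. In such bulk samples, fewer dividing cells and less of these RNAs per cell cannot be told apart. After subtraction of shared counts the mitosis sum was 84.0 CPM in thymic tuft cells and the replication sum 89.7 CPM. The small SD of the thymic replication sum does not hold for its parts. Over thymic libraries, origin loading and firing genes summed to 7.29 to 26.7 CPM and Ccne1 ran from 0.264 to 14.4 CPM. Of the mitosis sum of 124 CPM in thymic library 4, Mki67 and Top2a gave 51.3 CPM, and Ube2c and Cdc20 gave 49.8 CPM.

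The ratio of mitosis to replication expression had the same order of groups. The ratio of summed mitosis to summed replication CPM was 1.33, 0.620, 1.03 and 1.44 in thymic tuft libraries 1 to 4. It was 3.55, 2.88 and 2.86 in SI tuft libraries and 5.30, 4.39 and 5.20 in SI epithelium libraries. The 3 groups did not overlap in this ratio, and after subtraction thymic libraries 1 to 3 lay at 1.07, 0.422 and 0.836. As the median over genes of each gene's percent of its mean in SI epithelium, mitosis genes stood at 1.12% to 2.95% in thymic tuft and 20.7% to 26.8% in SI tuft libraries. Replication genes stood at 6.99% to 11.6% in thymic tuft and 33.3% to 38.8% in SI tuft libraries. In each of the 7 tuft libraries the mitosis median was below the replication median.

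**Figure D2:**
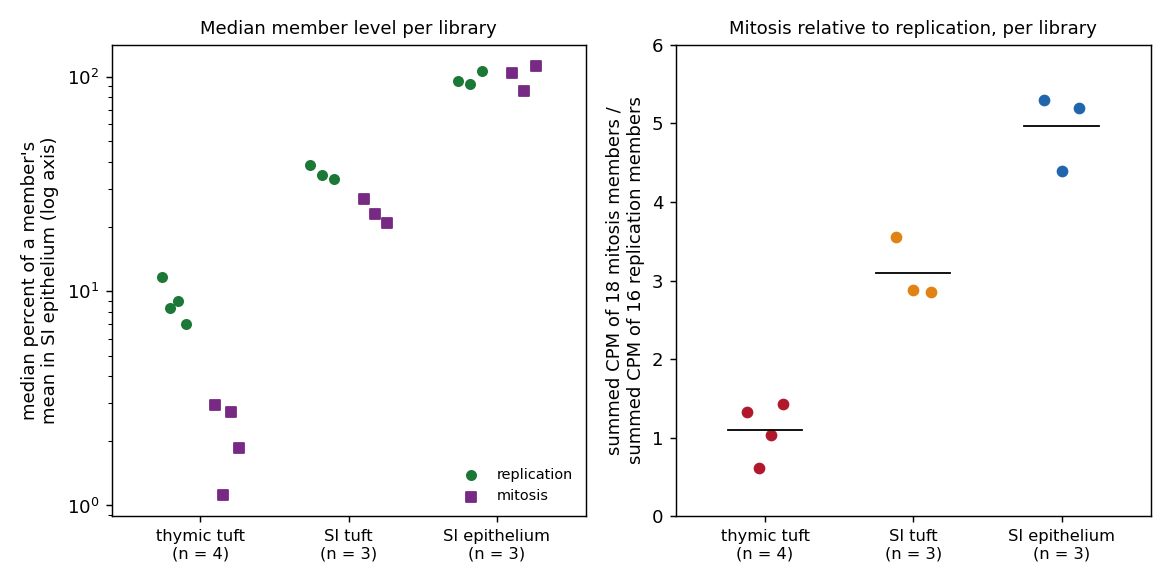
Left, the median over members of the percent of each member's mean in SI epithelium (log axis), for replication (circles) and mitosis (squares), 1 point per library. Right, summed mitosis over summed replication CPM per library with the group mean as a line: thymic tuft libraries lie at 0.620 to 1.44, SI tuft at 2.86 to 3.55 and SI epithelium at 4.39 to 5.30.

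In thymic tuft cells against SI epithelium, nearly the whole set was lower. The test called 18 of 18 mitosis genes and 14 of 16 replication genes lower, beside 22.3% of all genes tested. Cdc6 and Ccne1 were the 2 genes not called. The median fold change was -5.17 for mitosis and -2.97 for replication, beside 0.15 over all genes. The libraries did not overlap for 18 of 18 and 15 of 16 genes, beside 27.4% of all genes lower without overlap. The median mitosis gene stood at 2.75% of its level in SI epithelium and the median replication gene at 13.0%. None of the 34 genes was called higher by edgeR (0 at an unadjusted p below 0.05, 0 by DESeq2), where 28.6% of all genes were. After subtraction 18 and 14 genes were called lower, beside 21.0% of all genes, and the medians were -5.49 and -2.99.

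In thymic against SI tuft cells, most of the set was lower. The test called 17 of 18 mitosis genes and 11 of 16 replication genes lower, beside 23.1% of all genes. Ccnb1 among the mitosis genes, and Mcm4, Mcm7, Cdc6, Gins2 and Ccne1 among the replication genes, were not called. Median fold changes were -3.16 for mitosis and -1.92 for replication, beside 0.12 over all genes. Groups did not overlap for 17 of 18 and 10 of 16 genes, beside 24.9% of all genes. None of the 34 genes was called higher by edgeR (0 at an unadjusted p below 0.05), where 28.5% of all genes were, and DESeq2 called Ccne1 higher, as did edgeR without thymic library 2. After subtraction 17 and 11 genes were called lower, beside 21.8% of all genes, with medians of -3.50 and -1.95. With library size as the only scaling, 6 replication genes were called lower and 1, Ccne1, higher, the medians were -2.28 for mitosis and -1.01 for replication, and Pcna, Mcm4, Mcm7, Cdc6 and Gins2 lay above 0. The direction of these 5 replication genes therefore rests on the scaling. The calls of Pcna, Mcm2, Mcm5, Mcm6 and Rrm2 were lost with library size alone. Those of Pcna, Mcm5 and Mcm6 were also lost with only the 2 groups compared in the fit. Mcm6 lost its call too with DESeq2 size factors, with the DESeq2 test, and without any 1 SI library or thymic library 1, 3 or 4.

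In SI tuft cells against SI epithelium, every one of the 34 genes had all 3 SI tuft libraries below all 3 epithelial libraries, beside 28.4% of all genes. The test called 14 of 18 mitosis genes and 6 of 16 replication genes lower, beside 11.4% of all genes. The called replication genes were Pcna, Mcm3, Mcm6, Mcm7, Gins2 and Rrm2, and the mitosis genes not called were Ccnb1, Birc5, Ube2c and Cdc20. Median fold changes were -2.03 for mitosis and -1.45 for replication, beside -0.10 over all genes. The median mitosis gene stood at 24.5% of its level in SI epithelium and the median replication gene at 36.8%. None of the 34 genes was called higher by edgeR (0 at an unadjusted p below 0.05, 0 by DESeq2), where 10.9% of all genes were. After subtraction of shared counts 11 mitosis and 5 replication genes were called lower, beside 9.43% of all genes, with medians of -2.045 and -1.46. The number of calls rested on single libraries. Leaving out 1 library gave 1 to 9 replication and 8 to 17 mitosis calls, with 2 replication calls without SI epithelium library 1, 2 or 3 or SI tuft library 3, 3 without SI tuft library 2 and 1 without SI tuft library 4. The calls of Mcm6, Mki67, Top2a, Ccna2, Ccnb2, Cdk1, Plk1, Cenpf and Kif11 held under each of the other settings tried, and the other 11 did not. Mitosis calls came to 9 without SI epithelium library 1, 2 or 3 or SI tuft library 3, and to 8 without SI tuft library 4. The 3 comparisons share groups, so they are not independent of each other.

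**Figure D3:**
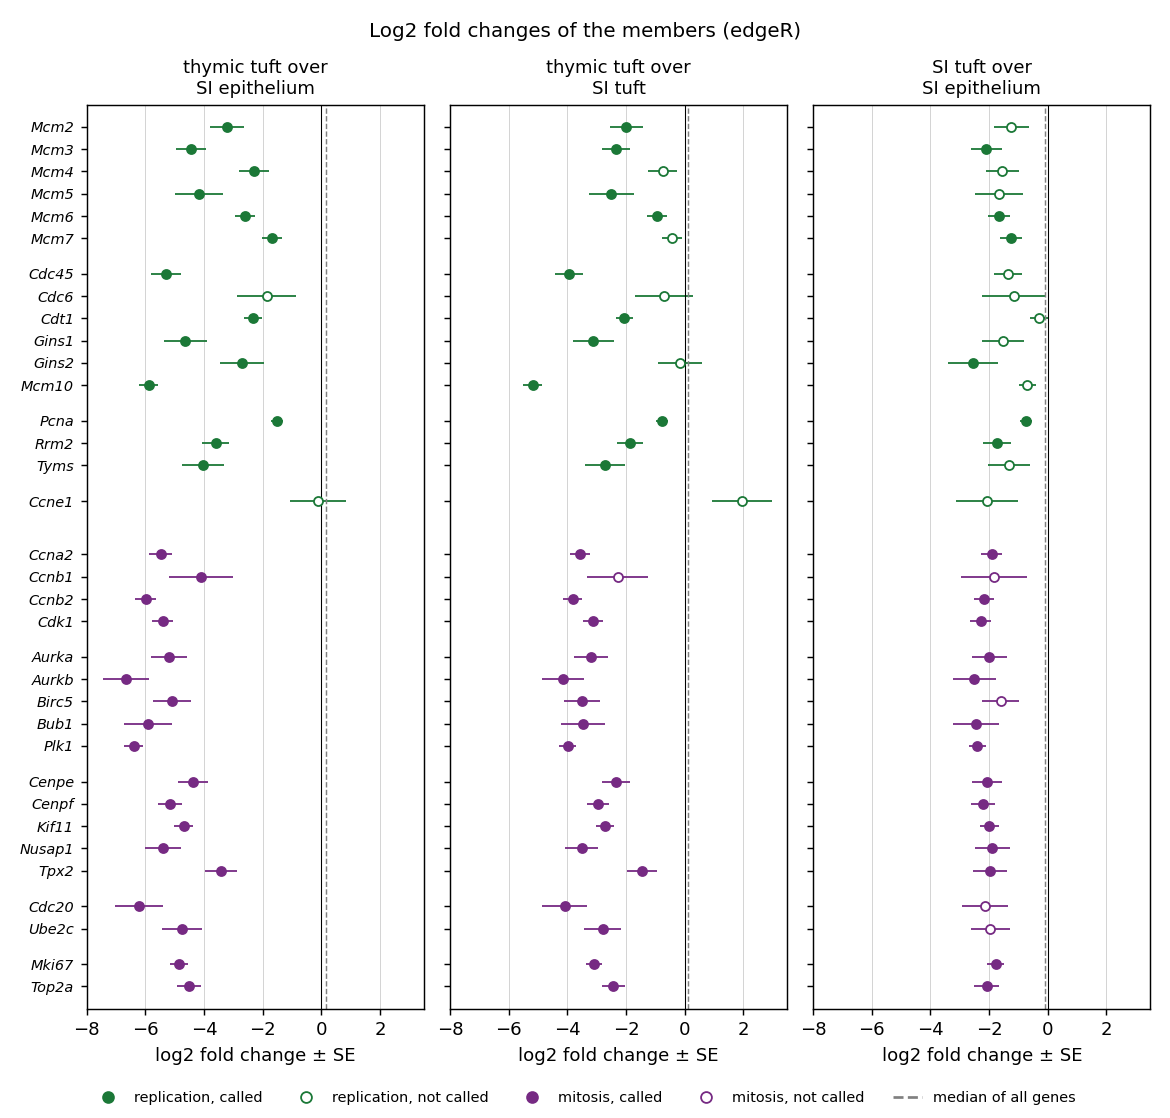
Log2 fold change with standard error of the 34 members in each comparison (filled points called at an adjusted p below 0.05, dashed line the median of all genes). Mitosis members lie between -3.43 and -6.65 for thymic tuft cells over SI epithelium, while replication members spread from -0.12 to -5.88.

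The subunits Mcm2 to Mcm7 form the ring-shaped replicative helicase. Mcm2 had 6.88, 7.69, 4.65 and 0.627 CPM in thymic tuft libraries 1 to 4, 19.8, 22.7 and 16.3 CPM in SI tuft libraries 2 to 4, and 50.8, 39.9 and 48.8 CPM in SI epithelium libraries 1 to 3. Mcm5 had 4.28, 0.754, 3.97 and 0.114 CPM in thymic tuft, 11.7, 15.1 and 11.9 CPM in SI tuft, and 37.5, 37.7 and 48.1 CPM in SI epithelium libraries. In both genes every thymic library was below every SI tuft library, which in turn were below the epithelium, and thymic library 4 was the lowest. For thymic tuft cells over SI epithelium the fold change was -3.23 ± 0.58 (adjusted p = 0.000632) for Mcm2. It was -4.17 ± 0.81 (adjusted p = 0.00116) for Mcm5. Mcm7 behaved otherwise between the tuft groups. It had 5.58, 8.44, 12.7 and 15.8 CPM in thymic tuft, 13.4, 17 and 12.6 CPM in SI tuft, and 31.9, 30.2 and 40.9 CPM in SI epithelium libraries. Thymic and SI tuft libraries overlapped, with a fold change of -0.43 ± 0.34 (adjusted p = 0.312), whereas SI tuft cells were called lower than SI epithelium at -1.26 ± 0.37 (adjusted p = 0.029). Mcm7 exons overlap those of Ap4m1, Cops6 and 2 microRNA genes, and the libraries carry no strand, so its level is uncertain. Mcm3, Mcm4 and Mcm6 averaged 1.95, 9.19 and 11.4 CPM in thymic tuft cells, 9.96, 15.4 and 22.0 CPM in SI tuft cells and 42.9, 45.1 and 69.6 CPM in SI epithelium. Summed over the ring, the level was 40.4 ± 5.51, 94.3 ± 13.3 and 279.5 ± 22.6 CPM in thymic tuft, SI tuft and SI epithelium.

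Origin loading and firing genes did not share one pattern. Mcm10, which helps to activate the loaded helicase and is not part of the ring, had 1.17, 0.565, 0.621 and 0.741 CPM in thymic tuft, 24, 34.6 and 25.8 CPM in SI tuft, and 43.8, 44 and 49.4 CPM in SI epithelium libraries. Thymic libraries were all near 1 CPM or below, while SI tuft libraries lay nearer to the epithelial range. Its fold change was -5.18 ± 0.32 (adjusted p = 1.05e-07) for thymic over SI tuft cells, the lowest of any replication gene, and -0.70 ± 0.30 (adjusted p = 0.116) for SI tuft cells over SI epithelium, which was not called. After subtraction the first was -5.77. Cdt1, the licensing factor that brings MCM to origins, had 2.88, 4.11, 6.04 and 4.81 CPM in thymic tuft, 18.7, 20.6 and 16.2 CPM in SI tuft, and 21.2, 23.3 and 23.1 CPM in SI epithelium libraries. SI tuft libraries lay just below the epithelial ones, at -0.28 ± 0.32 (adjusted p = 0.586), and thymic libraries lay well below both, at -2.05 ± 0.30 (adjusted p = 0.000146) over SI tuft cells.

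Cdc45, part of the active helicase, had 0.609, 0.942, 0.549 and 0.19 CPM in thymic tuft, 11, 8.11 and 7.37 CPM in SI tuft, and 24.7, 20.3 and 22.9 CPM in SI epithelium libraries. The 3 groups were apart, and the thymic fold change over SI tuft cells was -3.94 ± 0.48 (adjusted p = 2.87e-05). Gins2, a GINS subunit, had 2.06, 10.5, 3.66 and 0.418 CPM in thymic tuft, 3.81, 2.88 and 7.23 CPM in SI tuft, and 26, 27.4 and 28 CPM in SI epithelium libraries. Thymic and SI tuft libraries overlapped, at -0.16 ± 0.74 (adjusted p = 0.872), and both lay below the epithelium, with SI tuft cells at -2.55 ± 0.84 (adjusted p = 0.0471), the lowest fold change of any replication gene in that comparison. Most of the exon length of Gins2 is shared with Gse1 on the opposite strand, which stood at 93.4 to 192 CPM in all libraries, so Gins2 reads cannot be assigned with certainty. Gins1, the partner subunit without such an overlap, averaged 0.349, 3.03 and 8.76 CPM in thymic tuft, SI tuft and SI epithelium. Cdc6, which loads MCM with Cdt1, had 0.411, 9.72, 0.144 and 2.76 CPM in thymic tuft, 4.57, 3.05 and 8.32 CPM in SI tuft, and 10.1, 12.9 and 12.6 CPM in SI epithelium libraries. Thymic libraries ranged from far below to above the SI tuft libraries, and none of the 3 comparisons called it, with adjusted p between 0.143 and 0.584.

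Pcna, the sliding clamp (chr2:132249162-132253314, minus strand), was the called replication gene nearest to its epithelial level in thymic tuft cells. It had 29.9, 22.8, 27.5 and 24.8 CPM in thymic tuft, 53.9, 45.8 and 34.7 CPM in SI tuft, and 71.5, 69.2 and 85.5 CPM in SI epithelium libraries. The libraries of each group were close together and the groups did not overlap. Its fold changes were -1.52 ± 0.20 (adjusted p = 4.75e-05) for thymic tuft cells over SI epithelium and -0.75 ± 0.21 (adjusted p = 0.0237) for SI tuft cells over SI epithelium, the second of which was lost in 6 other settings (adjusted p up to 0.108). Tyms, the thymidylate synthase, had 8.39, 1.19, 1.66 and 0.722 CPM in thymic tuft, 27.7, 15 and 16.4 CPM in SI tuft, and 47.5, 45.7 and 54.4 CPM in SI epithelium libraries. Thymic library 1 stood above the other thymic libraries, but below every SI tuft library. Rrm2, the S phase subunit of ribonucleotide reductase, had 2.5, 1.24, 1.82 and 5.19 CPM in thymic tuft, 12.2, 7 and 10.0 CPM in SI tuft, and 32.8, 32 and 32.7 CPM in SI epithelium libraries. Its groups were also apart, at -1.86 ± 0.44 (adjusted p = 0.00393) for thymic over SI tuft cells and -1.74 ± 0.48 (adjusted p = 0.0209) for SI tuft cells over SI epithelium.

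Ccne1, cyclin E1 (chr7:38097984-38107534, minus strand), drives cells from G1 into S phase with Cdk2. It had 2.34, 0.264, 1.73 and 14.4 CPM in thymic tuft libraries 1 to 4, 1.58, 0.844 and 1.19 CPM in SI tuft libraries 2 to 4, and 5.08, 4.69 and 5.47 CPM in SI epithelium libraries 1 to 3. SI tuft libraries were the lowest as a group, below every epithelial library, and thymic libraries ran from below all SI tuft libraries to above all epithelial ones. The fold change was 1.96 ± 1.02 (adjusted p = 0.129) for thymic over SI tuft cells and -0.12 ± 0.95 (adjusted p = 0.928) for thymic tuft cells over SI epithelium. Thymic library 4 was the highest of all 10 libraries. Without it the fold change was 0.27 for thymic over SI tuft cells and -1.80 for thymic tuft cells over SI epithelium.

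**Figure D4:**
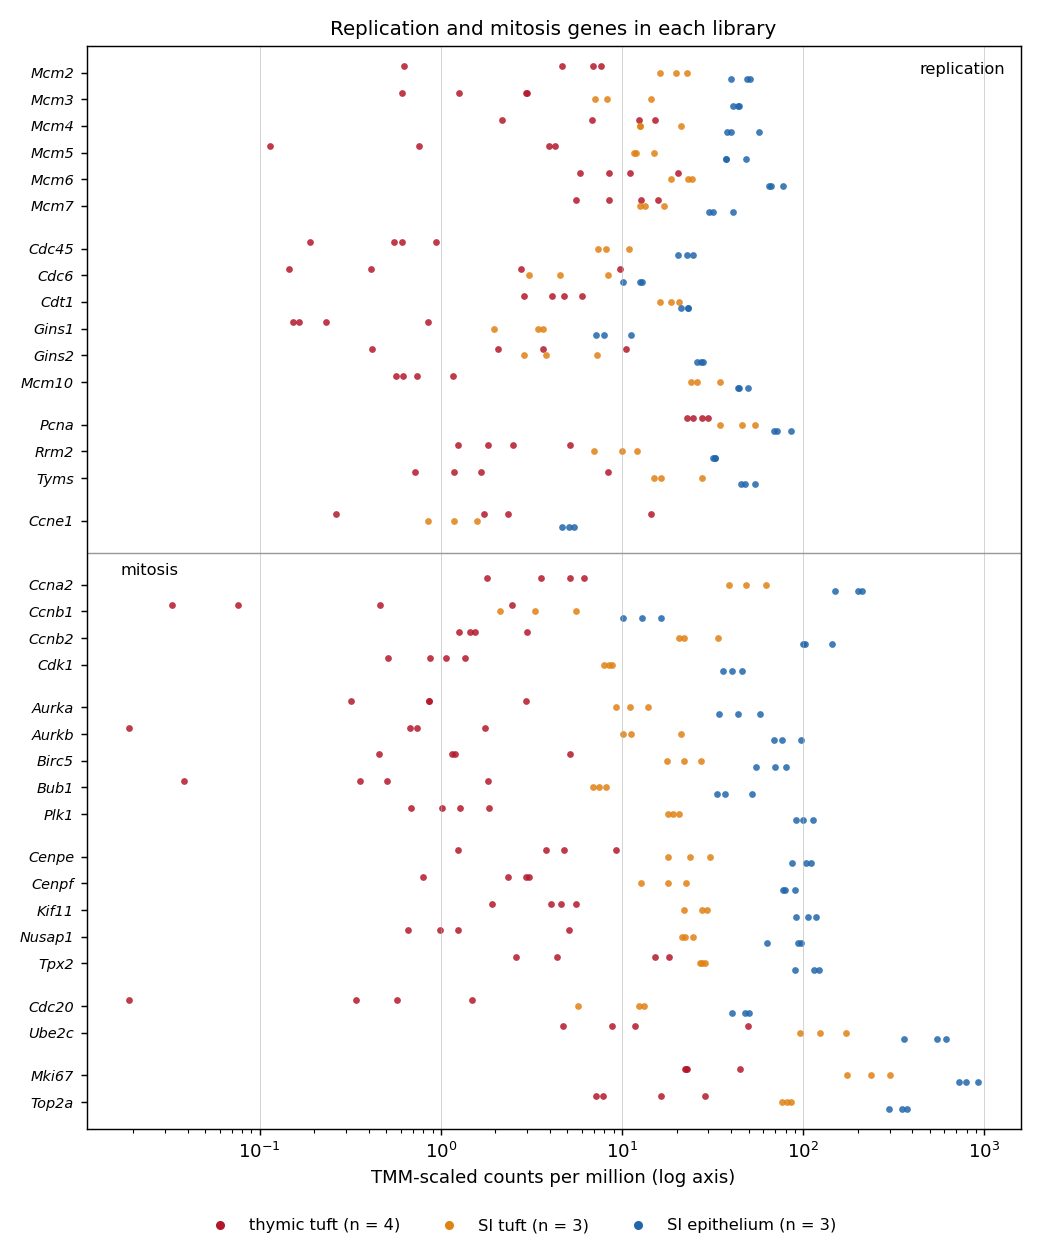
TMM-scaled CPM (log axis) of the 34 members in each library, with 1 point per library: thymic tuft (n = 4), SI tuft (n = 3) and SI epithelium (n = 3). Mitosis members separate the 3 groups in all but Ccnb1, while Mcm4, Mcm6, Mcm7, Cdc6, Gins2 and Ccne1 overlap between the tuft groups.

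Mki67 (chr7:135689784-135716361, minus strand) encodes Ki-67, the surfactant of mitotic chromosomes and the usual marker of dividing cells. It had 44.9, 22.7, 22.2 and 22.6 CPM in thymic tuft libraries 1 to 4, 301, 237 and 175 CPM in SI tuft libraries 2 to 4, and 788, 729 and 924 CPM in SI epithelium libraries 1 to 3. Thymic libraries 2 to 4 were nearly alike and library 1 stood above them, far below the SI tuft range. The fold changes were -3.08 ± 0.27 (adjusted p = 2.01e-06) for thymic over SI tuft cells and -1.78 ± 0.29 (adjusted p = 0.000835) for SI tuft cells over SI epithelium. Top2a, the topoisomerase that untangles sister chromatids, had 16.4, 7.9, 7.22 and 28.7 CPM in thymic tuft, 85.8, 81.9 and 76.1 CPM in SI tuft, and 353, 299 and 376 CPM in SI epithelium libraries. SI tuft libraries were close together, thymic libraries spread more, and the groups were apart.

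Cdk1, the kinase of mitotic entry, had 0.872, 0.509, 1.36 and 1.06 CPM in thymic tuft, 7.92, 8.85 and 8.42 CPM in SI tuft, and 46, 36.1 and 40.4 CPM in SI epithelium libraries. The 3 groups were apart, with -3.14 ± 0.34 (adjusted p = 1.07e-05) for thymic over SI tuft cells and -2.28 ± 0.36 (adjusted p = 0.000653) for SI tuft cells over SI epithelium. Ccnb1, cyclin B1, which activates Cdk1, had 0.0329, 0.0754, 0.462 and 2.47 CPM in thymic tuft, 5.59, 2.12 and 3.33 CPM in SI tuft, and 16.4, 10.2 and 12.8 CPM in SI epithelium libraries. Thymic libraries 1 and 2 held 2 and 4 counts of it, whereas thymic library 4 reached the SI tuft range. The fold change of -2.28 ± 1.04 (adjusted p = 0.0856) for thymic over SI tuft cells was not called. Ccnb2 and Ccna2, the other mitotic cyclins here, showed no overlap. Ccnb2 ranged over 1.25 to 2.98, 20.6 to 33.8 and 100.2 to 144 CPM and Ccna2 over 1.79 to 6.2, 38.9 to 62.4 and 151 to 211 CPM in thymic tuft, SI tuft and SI epithelium. For Ccnb2 the thymic fold change was -5.99 over SI epithelium and -3.82 over SI tuft cells, and after subtraction -6.69 and -4.49.

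Plk1, Polo-like kinase 1, acts in centrosome maturation, spindle assembly and cytokinesis. It had 1.84, 1.02, 1.27 and 0.684 CPM in thymic tuft, 18, 19.1 and 20.7 CPM in SI tuft, and 91.6, 99.5 and 114 CPM in SI epithelium libraries. The 3 groups did not overlap, and the fold changes were -3.99 ± 0.29 (adjusted p = 4.36e-07) for thymic over SI tuft cells and -2.40 ± 0.30 (adjusted p = 0.000123) for SI tuft cells over SI epithelium. After subtraction of shared counts the thymic mean of Plk1 was 0.580 CPM, against 1.20 CPM before it, and its fold change over SI tuft cells was -5.02 (adjusted p = 9.64e-07). Its promoter carries CHR letters and a CCAAT box on either side of the start site. Aurka, the Aurora kinase of spindle poles, had 0.855, 0.32, 2.93 and 0.855 CPM in thymic tuft, 11.1, 13.9 and 9.21 CPM in SI tuft, and 44, 34.4 and 58 CPM in SI epithelium libraries. Its groups were apart, with thymic library 3 the highest of the thymic libraries.

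Aurkb, the Aurora kinase of the chromosomal passenger complex (chr11:69045647-69051664, plus strand), had 1.76, 0.678, 0.737 and 0.019 CPM in thymic tuft, 21.2, 10.1 and 11.2 CPM in SI tuft, and 76.2, 69.4 and 97 CPM in SI epithelium libraries. It was the mitosis gene with the lowest fold change in all 3 comparisons, at -6.65 ± 0.79 (adjusted p = 2.24e-05) for thymic tuft cells over SI epithelium, -4.14 ± 0.71 (adjusted p = 0.000465) for thymic over SI tuft cells and -2.51 ± 0.73 (adjusted p = 0.0273) for SI tuft cells over SI epithelium. Thymic library 4 held 1 count of it. After subtraction the thymic mean of Aurkb was 0.302 CPM, against 0.799 CPM before it, and its fold changes were -8.02 (adjusted p = 9.69e-06) over SI epithelium and -5.50 (adjusted p = 0.000102) over SI tuft cells. Birc5, survivin, binds Aurkb in the same complex and had 1.15, 5.18, 1.2 and 0.456 CPM in thymic tuft, 27.2, 17.8 and 22 CPM in SI tuft, and 69.7, 54.8 and 80.1 CPM in SI epithelium libraries. Thymic library 2 was the highest of the thymic libraries, yet below the SI tuft range. Its fold change for SI tuft cells over SI epithelium was -1.61 ± 0.64 (adjusted p = 0.0933), the one nearest to 0 among the mitosis genes, and was not called. Bub1, a spindle checkpoint kinase, ranged over 0.038 to 1.81, 6.9 to 8.13 and 33.5 to 52 CPM in thymic tuft, SI tuft and SI epithelium. Its thymic fold change over SI epithelium was -5.90, and -6.50 after subtraction, and its lowest thymic value lay below the level of 3 counts.

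Kif11, the motor that pushes spindle poles apart, had 4.06, 4.58, 5.61 and 1.92 CPM in thymic tuft, 27.6, 22.1 and 29.4 CPM in SI tuft, and 118, 91.8 and 106 CPM in SI epithelium libraries. The groups were apart, at -2.71 ± 0.30 (adjusted p = 1.44e-05) for thymic over SI tuft cells and -1.995 ± 0.33 (adjusted p = 0.000823) for SI tuft cells over SI epithelium. Cenpf, a kinetochore protein, had 3.06, 2.34, 2.93 and 0.798 CPM in thymic tuft, 22.4, 18 and 12.8 CPM in SI tuft, and 90.6, 79.2 and 77 CPM in SI epithelium libraries. Tpx2, which activates Aurka on spindle microtubules, had 15.2, 2.6, 18.2 and 4.35 CPM in thymic tuft, 28.7, 27.7 and 26.9 CPM in SI tuft, and 115, 90.0 and 122 CPM in SI epithelium libraries. Thymic libraries 1 and 3 were several times as high as libraries 2 and 4. Tpx2 had the fold change nearest to 0 among the mitosis genes for thymic cells, at -1.46 ± 0.52 (adjusted p = 0.032) over SI tuft cells and -3.43 ± 0.54 (adjusted p = 0.000231) over SI epithelium. The call against SI tuft cells was lost under 8 of 22 other settings (adjusted p up to 0.392), among them without SI tuft library 2, 3 or 4 or thymic library 4, and stood at -0.55 with library size as the only scaling. Cenpe, a kinetochore motor, and Nusap1, a spindle protein, averaged 4.79 and 1.99 CPM in thymic tuft cells, 24.1 and 22.8 CPM in SI tuft cells and 100.6 and 84.9 CPM in SI epithelium.

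Ube2c and Cdc20 serve the anaphase-promoting complex, the ligase that ends mitosis, as its ubiquitin-conjugating enzyme and its activator. Ube2c had 11.8, 4.75, 8.79 and 49.8 CPM in thymic tuft, 172, 125 and 95.8 CPM in SI tuft, and 546, 362 and 618 CPM in SI epithelium libraries. Thymic library 4 was several times above the other thymic libraries and still below SI tuft library 4, the lowest of its group. Cdc20 had 0.576, 0.339, 1.49 and 0.019 CPM in thymic tuft, 13.2, 5.74 and 12.4 CPM in SI tuft, and 47.5, 40.2 and 50.2 CPM in SI epithelium libraries. Thymic library 4 held 1 count of it. Both were called for thymic over SI tuft cells, at -2.80 ± 0.62 (adjusted p = 0.00275) for Ube2c and -4.09 ± 0.77 (adjusted p = 0.000841) for Cdc20. After subtraction Cdc20 stood at -4.91 (adjusted p = 0.00246). Neither was called for SI tuft cells over SI epithelium, at -1.96 ± 0.67 (adjusted p = 0.0555) for Ube2c and -2.13 ± 0.78 (adjusted p = 0.07) for Cdc20.

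The thymic libraries were less alike than the others. The median SD over replicates of log2(CPM + 0.1) was 1.17 for mitosis and 0.96 for replication genes in thymic tuft cells. It was 0.32 and 0.36 in SI tuft cells and 0.24 and 0.14 in SI epithelium. The highest thymic library exceeded the lowest by a median of 7.25-fold for mitosis genes (2.02-fold to 92.6-fold) and 5.27-fold for replication genes (1.32-fold to 67.3-fold). Thymic library 4 was the lowest for 15 of 34 genes and library 2 for 12, and library 1 was the highest for 12. Thymic libraries held 1350 to 1900 cells against at least 35000 cells in SI libraries, and the part of cell number in this spread was not tested.

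Per length, as TPM, counts per base of exon brought to one total per library, and read within each group, the order of the genes differed. In thymic tuft cells Pcna was highest at 49.6 ± 7.78 TPM, before Ube2c at 32.1 ± 34.7 TPM and Mki67 at 12.8 ± 5.82 TPM. In SI tuft cells Ube2c was highest at 75.7 ± 15.0 TPM, before Mki67 at 35.7 ± 7.05 TPM and Pcna at 28.4 ± 5.06 TPM. In SI epithelium Ube2c stood at 363 ± 98.4 TPM, Mki67 at 150.0 ± 22.0 TPM and Ccnb2 at 139.9 ± 34.2 TPM. Pcna thus ranked 1 of 34 in thymic tuft cells, 3 in SI tuft cells and 7 in SI epithelium, and Mcm10 ranked 34, 17 and 29. In thymic tuft cells Ube2c and Pcna did not differ beyond their spread, nor did Mki67 and Ccnb2 in SI epithelium.

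Other genes of the pathway, 217 genes in 10 lists with no member among them, were read in the same fits. For thymic tuft cells over SI epithelium, 26 of 28 spindle and cytokinesis genes, 30 of 36 kinetochore and checkpoint genes, 26 of 31 fork genes, 15 of 19 condensin, cohesin and separase genes, 13 of 20 E2F and DREAM genes, 9 of 12 nucleotide supply genes, 9 of 17 origin recognition genes, 12 of 28 genes of mitotic entry, 6 of 13 G1 cyclins and Cdks and 2 of 12 Cdk inhibitors were called lower, beside 22.3% of all genes. The numbers called higher were 0, 1, 0, 1, 1, 0, 0, 1, 2 and 4 in the same order, beside 28.6%. After subtraction 25 fork genes were called lower, beside 21.0% of all genes, and the other counts were unchanged. Median fold changes ran from -4.10 for spindle genes to 0.39 for Cdk inhibitors.

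For thymic over SI tuft cells, the numbers called lower in the same order were 22, 20, 17, 9, 10, 4, 5, 9, 1 and 1, beside 23.1% of all genes, and higher 0, 1, 0, 1, 2, 2, 0, 4, 6 and 4, beside 28.5%. The shares lower of nucleotide supply, origin recognition and mitotic entry genes, and the share higher of Cdk inhibitors, were near these. After subtraction the numbers lower were 22, 18, 14, 8, 9, 4, 4, 9, 1 and 1, beside 21.8% of all genes. The numbers higher then stayed the same except for Cdk inhibitors, with 6 of 12, beside 29.0%. Among genes that fell, the chromatin assembly subunit Chaf1b averaged 1.02 ± 0.821 CPM in thymic and 21.2 ± 2.67 CPM in SI tuft cells, with a fold change of -4.37 ± 0.64 (adjusted p = 0.000127). E2f8, a repressor of the E2F family, averaged 2.17 ± 1.43 CPM in thymic and 52.5 ± 7.65 CPM in SI tuft cells, at -4.59 ± 0.55 (adjusted p = 2.39e-05), and Cdca8, which binds Aurkb and survivin, fell by 3.96 (SE 0.61, adjusted p = 0.000192). Ticrr, Gmnn, Pold2, Shmt1, Cenpa, Kif18b, Hmmr, Ncaph, Smc4, Pbk, Melk, E2f2 and Cdk2 also fell, by 1.26 to 5.25. After subtraction E2f8 stood at -5.33 and Kif18b at -4.80 (-4.11 before). The thymic mean of Pbk was then 0.0392 CPM (0.281 CPM before), below the level of 3 counts. The calls of Pold2 and Shmt1 were lost with library size as the only scaling, and that of Shmt1 also with only the 2 groups compared in the fit.

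A smaller number rose in thymic tuft cells. Tk1, the salvage thymidine kinase, averaged 48.1 ± 14.5 CPM in thymic and 13.0 ± 4.38 CPM in SI tuft cells, at 1.88 ± 0.29 (adjusted p = 0.000201), against the direction of Tyms in the same supply of thymidine nucleotides. Pttg1, securin, which holds separase inactive, averaged 61.2 ± 14.9 and 28.4 ± 1.22 CPM, at 1.11 ± 0.24 (adjusted p = 0.00198). Myc, the growth factor-induced transcription factor, averaged 210.2 ± 46.1 and 37.2 ± 9.04 CPM, at 2.50 ± 0.22 (adjusted p = 2.15e-06). Mycl, Rb1, Cdc26, Impdh2, Btg1, Zwint, Wee1 and Cdkn2b were called higher by 0.59 to 1.83. Of these, Wee1 and Cdkn2b lost the call under 11 of 22 other settings, Zwint under 10, Impdh2 under 5 and Rb1 under 1 (without SI tuft library 3).

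For SI tuft cells over SI epithelium, the numbers called lower in the same order were 20, 15, 7, 12, 4, 6, 5, 6, 6 and 3, beside 11.4% of all genes, and higher 0, 1, 1, 0, 1, 0, 0, 2, 1 and 2, beside 10.9%. After subtraction the numbers lower were 18, 13, 3, 12, 5, 6, 5, 4, 5 and 3, beside 9.43% of all genes. The share lower of fork genes, 3 of 31, was then near that of all genes, and the numbers higher were unchanged. Ccnd2, cyclin D2, averaged 44.0 ± 4.00 CPM in SI tuft cells and 241 ± 38.3 CPM in SI epithelium, at -2.45 ± 0.21 (adjusted p = 5.68e-06). Cdkn1c, the Cdk inhibitor p57, had the highest fold change of the 10 lists there, with 337 ± 85.4 CPM in SI tuft cells and 13.5 ± 0.643 CPM in SI epithelium, at 4.64 ± 0.26 (adjusted p = 1.01e-07). In thymic tuft cells it averaged 87.0 ± 17.9 CPM, below SI tuft cells at -1.95 ± 0.21 (adjusted p = 8.37e-06). Cdkn1a, p21, averaged 623 ± 60.3 CPM in SI tuft cells and 393 ± 37.2 CPM in SI epithelium, at 0.66 ± 0.15 (adjusted p = 0.00665), and was not called with library size as the only scaling. Cdk2 averaged 67.8 ± 10.6 and 19.0 ± 0.638 CPM, at 1.83 ± 0.31 (adjusted p = 0.00102), and Bub3, a checkpoint protein, 267 ± 27.9 and 56.8 ± 6.57 CPM, at 2.24 ± 0.25 (adjusted p = 5.01e-05). Anapc13, Arpp19, Pold4 and Lin37 were also called higher, and Ticrr, Dbf4, Clspn, Pola1, Dut, Ctps, Cenpn, Kntc1, Cep55, Kif14, Espl1, Ncaph, Cdc25c, Mastl, E2f7, Foxm1, Cdk6, Cdkn2b and Trp53 lower. Many of these calls rested on the settings. Of up to 22 others, the call was lost under 11 for Cenpn, 9 for Cdc25c, 7 for Clspn, Dut and Espl1, 6 for Dbf4 and Kntc1, 4 for Ctps, Foxm1 and Pold4, 3 for Lin37 and Cdkn2b, 2 for Cep55, Mastl and Ncaph, and 1 for Kif14 and Pola1, most often when 1 SI library was left out.

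**Figure D5:**
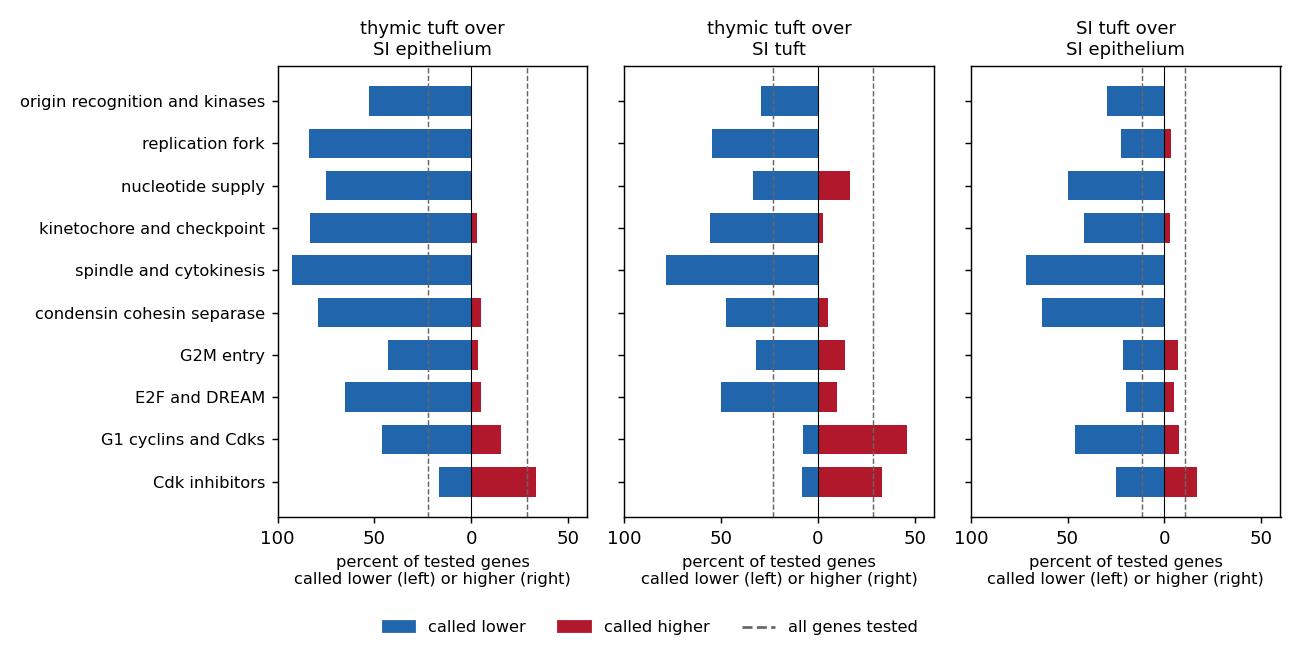
Percent of tested genes of each of the 10 pathway lists called lower (bars to the left) or higher (bars to the right) in each comparison, with dashed lines at the percent over all genes tested. Spindle and cytokinesis genes reach the longest bars to the left (26, 22 and 20 of 28), and G1 cyclins and Cdks turn to the right for thymic over SI tuft cells (6 of 13).

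Summed markers of crypt cells had the same order of groups as the replication and mitosis sums. Summed markers of enterocytes did not, and were highest in SI tuft cells. The 10 markers of intestinal stem and crypt cells summed to 198 to 284 CPM in thymic tuft, 297 to 359 CPM in SI tuft and 994 to 1276 CPM in SI epithelium libraries. For SI tuft cells over SI epithelium 8 of the 10 were called lower, beside 11.4% of all genes, and for thymic tuft cells over SI epithelium 7, beside 22.3%. For thymic over SI tuft cells 4 were called lower and 2 higher, beside 23.1% and 28.5%. None of these markers was at 0 in any group. Olfm4, a crypt stem cell marker, averaged 41.7 ± 17.3, 89.2 ± 25.5 and 638 ± 102 CPM in thymic tuft, SI tuft and SI epithelium, and Axin2, a Wnt target, 32.2 ± 19.6, 42.1 ± 11.8 and 118 ± 11.9 CPM. Enterocyte markers summed to 282 to 540.3 CPM in thymic tuft, 28350.0 to 34500.0 CPM in SI tuft and 15020.0 to 17030.0 CPM in SI epithelium libraries. For SI tuft cells over SI epithelium 3 of 10 were called higher, beside 10.9% of all genes, and 2 after subtraction of shared counts. Apoa1 and Apoa4, the most abundant, averaged 7183 ± 2619 and 6257 ± 1291 CPM in SI tuft cells against 3892 ± 484 and 3452 ± 409 CPM in SI epithelium. None of the 10 was at 0 in any group, and the part of crypt cells and enterocytes in the results was not tested.

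Markers of other lineages of the epithelium were read beside the mitosis genes. Of 13 goblet, Paneth and enteroendocrine markers, chosen after the data were seen, the median stood at 1.495% of the SI epithelium mean in thymic tuft cells (0.573% to 17.1%) and at 2.47% in SI tuft cells (1.85% to 31.5%). Mitosis genes stood at 17.5% to 32.8% of SI epithelium in SI tuft cells, and at 0.988% to 9.29% in thymic tuft cells. In SI tuft cells the median mitosis gene was therefore higher, relative to epithelium, than the median marker of these lineages. Markers of crypt cells and of enterocytes are not among these 13. Crypt markers summed to a mean of 321 CPM in SI tuft cells against 1148 CPM in SI epithelium. Enterocyte markers summed to 30900.0 against 15760.0 CPM. The comparison with the 13 markers therefore does not cover those cells. In thymic tuft cells the mitosis medians of 1.12% to 2.95% lay near the 1.495% of those markers, both before subtraction of shared counts. After subtraction the mitosis medians were 0.431% to 2.09%. The markers were not read after subtraction, so these medians cannot be set beside them, and the part of shared counts in either was not tested.

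Summed myeloid, B cell and stromal markers were higher in thymic libraries, although the gate took CD45- cells. For thymic over SI tuft cells 7 of 9 myeloid, 2 of 5 B cell and 7 of 8 fibroblast and endothelial markers tested were called higher, beside 28.5% of all genes, and 1 myeloid marker, Itgax, was called lower. Myeloid markers summed to 239 to 285 CPM in thymic tuft, 16.8 to 51.5 CPM in SI tuft and 21.3 to 29.6 CPM in SI epithelium libraries, led by Lyz2 and Itgam, with Flt3 and Xcr1 at 0 in SI tuft and Siglech at 0 in SI epithelium. B cell markers summed to 25.6 to 41.5 CPM, 1.80 to 4.44 CPM and 1.80 to 2.97 CPM in the same groups, led by Cd79b and Pax5. Cd79b alone averaged 25.1 CPM of a mean sum of 33.3 CPM in thymic tuft cells. With 2 of 5 called, the B cell count is too small to set apart from the share of all genes. Of 12 thymocyte and T cell markers tested, of cells that divide in the thymus, 1 (Themis) was called higher and 1 (Cd3e) lower for thymic over SI tuft cells. For thymic tuft cells over SI epithelium 6 of the 12 were called higher, beside 28.6% of all genes, and 0 lower. All 15 summed to 13.6 to 52.9 CPM, 24.1 to 36.2 CPM and 3.30 to 6.47 CPM. Ptcra was at 0 in thymic tuft, Rag2 in SI tuft, and Cd8b1, Rag1, Rag2, Dntt and Ptcra in SI epithelium libraries. In thymic tuft cells the highest were Themis at 6.03 ± 5.00 CPM, Cd4 at 5.75 ± 3.80 CPM and Lck at 5.55 ± 4.08 CPM, and in SI tuft cells Cd3e at 11.7 ± 3.79 CPM and Lck at 9.40 ± 3.73 CPM. Themis, Cd4 and Itgax were picked after their values were seen.

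Thymic epithelial markers summed to 1578 to 1927 CPM in thymic tuft, 412 to 457 CPM in SI tuft and 418 to 450 CPM in SI epithelium libraries. For thymic over SI tuft cells 8 of 10 tested were called higher and 1, Ccl25, which SI epithelium also makes, lower, beside 28.5% and 23.1% of all genes. Krt5 averaged 636 ± 54.8, 0.147 ± 0.209 and 3.26 ± 0.605 CPM, with Krt14 and Ccl21a at 0 in SI tuft and Psmb11 and Ccl21a at 0 in SI epithelium libraries. Fibroblast and endothelial markers summed to 36.4 to 173 CPM, 3.96 to 4.74 CPM and 3.80 to 4.60 CPM in the same groups, led by Dcn and Acta2, with Col1a2, Col3a1, Pdgfra and Cdh5 at 0 in SI tuft and Kdr in SI epithelium libraries. Red cell markers summed to 2.11 to 4.18 CPM, 4.01 to 12.0 CPM and 0.0757 to 4.20 CPM, with Alas2 highest in thymic tuft cells at 2.87 ± 1.13 CPM, Hbb-bs highest in SI tuft cells at 2.79 ± 0.113 CPM and in SI epithelium at 0.712 ± 0.958 CPM, and Hba-a2 at 0 in thymic tuft libraries. The part of these cells in the levels of replication and mitosis genes was not tested.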

How the data were processed

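The submitters' processing notes name STAR, build GRCm38 and DESeq2, without versions; the counter and its annotation are not given in the sources used here. The authors deposited raw counts per Ensembl gene, 1 file per library, and per the labels the Ovation V2 and Nextera XT kits mark no strand. Of 4 replicates sorted for each of the 3 populations, the authors dropped 1 SI tuft and 1 SI epithelium library for quality, per the design text. Raw reads were not used here.

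Symbols, lengths and overlaps came from GENCODE M21, which held 42548 of 43432 identifiers and not the other 884. Genes were kept by filterByExpr (minimum count 10, total 15), scaled by TMM and tested with edgeR 4.0.16 (R 4.3.3, limma 3.58.1) in 1 fit of the 10 libraries, with group means as coefficients. Alternatives, 20 planned and 2 added after seeing the data, included DESeq2 1.42.0, other scalings and filters, a replicate block and each library left out. The procedure was tested on simulated data. TPM used summed exon length and no TMM factor. Shared counts were estimated over 282 genes with at least 2000 counts in thymic libraries and 11 genes whose SI epithelium counts reached 20000.

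The members, gene lists and tests were chosen with earlier results of these data known. Values in every library are given for 22 genes spread over the roles and for the largest and smallest fold change of each role in each comparison. Of each pathway list up to 2 genes each way of at least 10 CPM are named, and of each marker list the 2 most abundant over the 10 libraries; a few single genes are not reported here. The 13 markers of other SI lineages and the subtraction without thymic library 4 were added after seeing the data, as was scaling by library size alone.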

Additional observations from a re-analysis of the deposited data

Results flagged for a closer look

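In 8 of the 34 genes 1 thymic tuft library stood far from the other 3 by Dixon's criterion for 4 values. For normal values about 1 in 20 would meet it. The share over all genes was not computed, so whether 8 of 34 is many for these libraries cannot be told. Values before subtraction of shared counts were used. SI groups of 3 libraries were too small for the criterion. Library 1 was high for Mki67 (44.9 CPM, others 22.2 to 22.7), Tyms (8.39 CPM, others 0.722 to 1.66), Nusap1 (5.08 CPM, others 0.660 to 1.24) and Ccnb2 (2.98 CPM, others 1.25 to 1.55). Library 2 was high for Birc5 (5.18 CPM, others 0.456 to 1.20) and Gins1 (0.848 CPM, others 0.152 to 0.231). Library 4 was high for Ube2c (49.8 CPM, others 4.75 to 11.8) and Ccne1 (14.4 CPM, others 0.264 to 2.34). Each of these libraries was the high one for genes of both roles, and the criterion was taken on CPM, where a low library can hardly meet it when values are skewed upwards. Library 1 held 1900 sorted cells, and libraries 2 and 4 held 1800 and 1350.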

How the results depend on the processing

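Of 2232 member fold changes under other settings, 2065 kept direction and call, 97 lost the call, 53 gained it and 17 changed sign. Every call against SI epithelium in thymic tuft cells (14 replication, 18 mitosis) held under all settings that tested the gene. Against SI tuft cells 6 replication and 16 mitosis calls held throughout, and for SI tuft cells against SI epithelium 1 (Mcm6) and 8. Of 1253 such values for named pathway genes, 1132 kept their call, 121 lost it and 0 changed sign. Sign changes for thymic over SI tuft cells with library size alone were Pcna 0.14, Mcm4 0.14, Mcm7 0.45 and Cdc6 0.18; Gins2 became 0.73, and 0.073 with DESeq2 size factors, 0.074 with the DESeq2 test, 0.23 after subtraction without thymic library 4, and -1.16 to 0.30 without 1 library (above 0 without thymic library 1 or 4 or SI tuft library 4). Ccne1 over SI epithelium became 0.14 with DESeq2 size factors or test, 0.47 with library size alone, and -1.80 to 0.29 without 1 library (above 0 without thymic library 1, 2 or 3, and lowest without thymic library 4).

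With only the 2 groups compared in the fit, SI tuft cells over SI epithelium gave 3475 genes higher, 3513 lower and 15 replication genes lower; leaving out 1 library gave 1426 to 2754 genes, 1 to 9 replication genes and 8 to 17 mitosis genes lower. For thymic over SI tuft cells, 3289 genes were higher with a filter of 10 CPM in 3 libraries and 8822 with library size alone, where 2003 were lower; replication genes were 6 lower and 1 higher. That 1 gene (Ccne1) was also called by DESeq2, and leaving out 1 library gave 0 to 1. For thymic tuft cells over SI epithelium, 3536 genes were higher with the 10 CPM filter and 2460 lower with library size alone. Summed replication CPM in thymic tuft cells was 100.0 with DESeq2 size factors, 94.3 with upper quartile scaling, 109.9 without mitochondrial genes and 124 with library size alone. The last 2 settings gave 289 and 175 CPM in SI tuft cells and 701 and 519 CPM in SI epithelium, and for mitosis 899 and 540.1 CPM in SI tuft cells; mitosis sums were 136.5 CPM in thymic tuft cells with library size alone and 3488 CPM in SI epithelium without mitochondrial genes. The cause was not tested, except that the 2-group fit and the filter test other sets of libraries or genes.

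In deviations from their group means, 8 same-number pairs of libraries correlated at -0.04 to 0.10, and 2 of 10 libraries were closest to their own number. This cannot decide whether equal numbers pair the samples, because the highest correlations were those of libraries that share counts. SI epithelium libraries 2, 1 and 3 correlated with thymic libraries 2, 3 and 1 at 0.10, 0.084 and 0.046. With the number as a block, 15 replication and 18 mitosis genes were lower in thymic tuft cells than in SI epithelium, 11 and 18 than in SI tuft cells, and 4 and 11 for SI tuft cells over SI epithelium. Of all 19281 genes, 4092, 4172 and 1565 were lower in the same order of comparisons. Aurkb, Bub1, Cdc20 and Ccnb1 had only a few counts in some thymic libraries, so their levels there are uncertain. Thymic libraries held 38659882 to 51153413 counts and SI tuft libraries 46846738 to 62268881. The part of depth or of cell number in these low counts was not tested.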
